A study of Mus musculus with 24 samples.

Results

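Nuclear genes for subunits of the mitochondrial respiratory chain and the ATP synthase were followed in livers of a mouse study of NASH, in which fat and inflammation damage the organ. They were chosen by gene name alone: the Nduf genes of the A, B, C, S and V series, the 4 Sdh genes, the Uqcr genes, the Cox4 to Cox8 genes, the Atp5 genes, Cyc1 and Cycs. Of 14293 genes with a value, 82 met this rule. They comprise 37 genes of complex I, 4 of complex II, 9 of complex III, 14 of complex IV, 17 of complex V and the gene of the mobile carrier cytochrome c. Of these 82 genes, 80 had values high enough to be tested.

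The respiratory chain sits in the inner mitochondrial membrane. Complex I takes electrons from NADH and complex II takes them from succinate, ubiquinone carries them to complex III, cytochrome c carries them on to complex IV, and complex IV reduces oxygen. Complexes I, III and IV pump protons, and complex V, the ATP synthase, uses the return of those protons to make ATP. Hepatocytes hold many mitochondria, which also burn fatty acids, so mitochondrial function is much studied in fatty liver disease.

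RNA from 24 liver samples was sequenced, 8 from mice given vutiglabridin, 8 from mice given semaglutide and 8 from mice given vehicle. Vutiglabridin is named in the series title as a paraoxonase-2 agonist, and semaglutide is a GLP-1 receptor agonist in clinical use. The labels place all 24 samples in NASH liver and differ only in the treatment. They give no strain, age, sex, diet, dose or duration. Nothing in them says that the samples of a group came from separate animals, so each p-value speaks for the scatter among these samples alone, and that scatter may be technical. There was no healthy liver group, so the levels cannot be set against an undiseased liver here.

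Values are FPKM, a measure of fragments scaled for transcript length and library depth, and differences are on the log2(FPKM + 1) scale with their standard error (SE). All 8 hepatocyte markers were present, with a median summed level of 42899 FPKM in vutiglabridin, 44159 FPKM in semaglutide and 36141 FPKM in vehicle libraries, and none of 8 striated muscle markers had a row. Libraries held 5.98 to 15.28 M (mega) implied fragments in vutiglabridin, 9.32 to 12.38 M in semaglutide and 11.98 to 19.9 M in vehicle, and vutiglabridin replicate 7 was the shallowest. Its values were 0 in 1413 rows, against 80 to 439 rows in the other libraries. Total FPKM was 344271 to 385601 in vutiglabridin, 328780 to 372405 in semaglutide and 318267 to 352578 in vehicle libraries. The semaglutide values each carry a trailing space that the other 16 columns lack, so a difference in processing and an effect of semaglutide cannot be told apart. In whole tissue, fewer cells of a type and less RNA per cell cannot be told apart either.

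The subunit genes averaged 0.267 to 361 FPKM over all samples, with a median over the 82 genes of 68.5 FPKM. Atp5a1 and Atp5b, the alpha and beta subunits of the catalytic head of ATP synthase, were the highest at 361 and 342 FPKM over all samples. Cox4i1, the largest nuclear subunit of complex IV, followed at 277 FPKM. In all, 28 genes reached 100 FPKM and 10 were under 10 FPKM. The low ones included isoforms known from other tissues: Cox6b2, described in testis, averaged 0.267 FPKM and Cox4i2, known from lung, 0.295 FPKM, and these were the 2 genes left untested. Atp5l was the lowest gene tested at 0.725 FPKM. Its length in the annotation is 6443 bp of exon, and 9 other genes, 8 of them pseudogenes, share a near-identical stretch with it, so its low level is uncertain. Such stretches, of at least 200 bp at 95% identity, were found for 26 of the 82 genes, which include Cycs, Cox7c and Ndufb3. In 19 of the 26 a pseudogene held one. Exons that share their place with another gene were not set apart, as for Ndufa13 and Tssk6 (375 bp). Ndufb5 is among the 26 and has no pseudogene match.

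**Figure D1:**
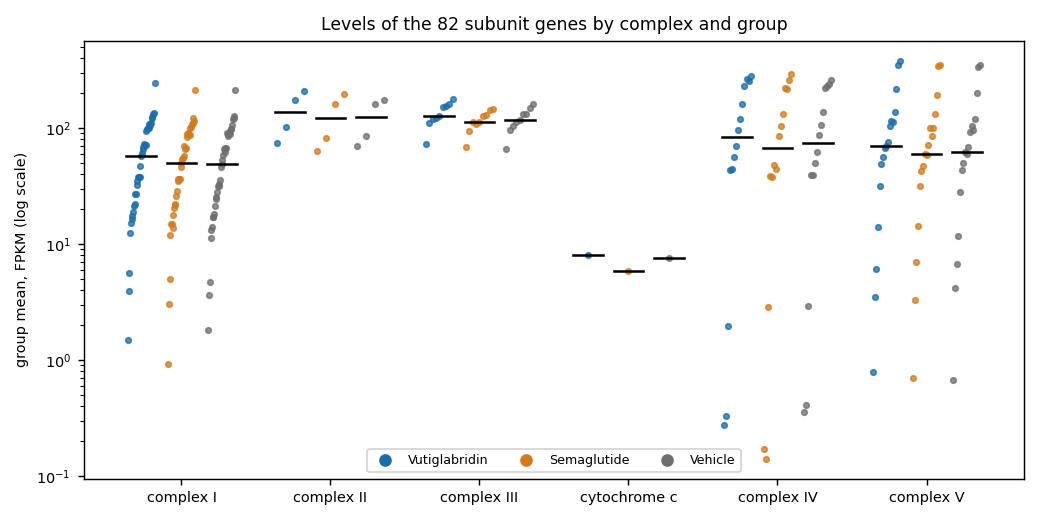
Mean FPKM of the 82 subunit genes in vutiglabridin, semaglutide and vehicle samples (8 each), by complex, on a log axis. Each point is a gene and each black line the median of the complex; the 3 groups spread over similar ranges in each complex, and single low genes of complexes I, IV and V lie far below the rest.

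Summed over each complex, the genes kept nearly the same proportions in the 3 groups. Complex I made up 31.3% ± 0.42 of the summed subunit FPKM in vutiglabridin, 31.2% ± 0.52 in semaglutide and 31.3% ± 0.43 in vehicle livers (SD, n = 8 each). The share of complex II was 7.44% ± 0.41 in vutiglabridin, 7.44% ± 0.65 in semaglutide and 7.24% ± 0.50 in vehicle. The share of complex III was 15.8% ± 0.25 in vutiglabridin, 15.4% ± 0.20 in semaglutide and 15.7% ± 0.31 in vehicle. Complex IV took 21.5%, 21.8% and 21.6% and complex V 23.8%, 24.15% and 24.03% in the same order of groups, with SDs of 0.50 to 0.96. The total was 7539 ± 563 FPKM in vutiglabridin, 6785 ± 786 FPKM in semaglutide and 6806 ± 541 FPKM in vehicle livers (SD, n = 8 each). The 3 ranges of the total overlapped, at 7082 to 8806 FPKM in vutiglabridin, 6078 to 8527 FPKM in semaglutide and 6109 to 7670 FPKM in vehicle.

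Promoters of 5 genes that differed in the comparisons described next are shown with the elements that nuclear respiratory genes are known for. They are a selection, and other genes that differed, such as Atp5c1, Ndufb5 and Ndufb3, held no match in the same window. Nuclear respiratory factor 1 (NRF1) binds GCGCATGC, and TGCGCA is a shorter form of its site. The core CCGGAAG is bound by ETS factors such as GABP, and AAGATGG is the core of YY1 sites. Capitals mark every match on either strand in the 300 bases from 250 before to 50 after the RefSeq start (GRCm38.p6), written 5′ to 3′ on the strand of the gene. An NRF1 core preceded by T also contains the shorter form, and no such overlap occurs in these 5 windows. Sdhb (chr4:140961021-140961320, plus strand) holds an NRF1 core and an ETS core, Sdhd (chr9:50603800-50604099, minus strand) 2 short NRF1 forms and an ETS core, and Ndufs8 (chr19:3912725-3913024, minus strand) an ETS core. Cycs (chr6:50566520-50566819, minus strand) holds an NRF1 core and Cox7c (chr13:86046746-86047045, minus strand) a YY1 core.
Sdhb: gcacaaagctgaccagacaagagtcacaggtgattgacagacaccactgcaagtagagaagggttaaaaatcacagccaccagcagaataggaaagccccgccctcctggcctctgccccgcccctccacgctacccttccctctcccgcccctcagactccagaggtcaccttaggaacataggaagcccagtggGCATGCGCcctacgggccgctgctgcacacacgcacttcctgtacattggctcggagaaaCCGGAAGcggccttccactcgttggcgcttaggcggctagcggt
Sdhd: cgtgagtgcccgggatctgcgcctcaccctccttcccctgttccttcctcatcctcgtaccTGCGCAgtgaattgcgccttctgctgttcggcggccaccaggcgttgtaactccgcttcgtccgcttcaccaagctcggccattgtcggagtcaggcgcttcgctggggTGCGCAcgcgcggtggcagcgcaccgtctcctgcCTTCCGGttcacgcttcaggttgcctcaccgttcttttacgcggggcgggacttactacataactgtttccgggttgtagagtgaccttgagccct
Ndufs8: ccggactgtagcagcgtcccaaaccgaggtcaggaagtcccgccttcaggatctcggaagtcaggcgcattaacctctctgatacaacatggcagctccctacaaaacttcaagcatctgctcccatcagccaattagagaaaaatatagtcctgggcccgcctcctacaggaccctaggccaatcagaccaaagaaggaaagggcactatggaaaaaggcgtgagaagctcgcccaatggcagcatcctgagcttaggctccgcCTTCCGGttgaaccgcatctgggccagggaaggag
Cycs: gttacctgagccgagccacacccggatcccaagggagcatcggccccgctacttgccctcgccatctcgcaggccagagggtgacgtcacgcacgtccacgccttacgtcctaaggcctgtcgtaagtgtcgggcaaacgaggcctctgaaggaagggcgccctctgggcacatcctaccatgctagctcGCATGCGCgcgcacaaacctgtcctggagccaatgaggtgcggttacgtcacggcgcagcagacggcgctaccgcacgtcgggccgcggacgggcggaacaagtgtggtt
Cox7c: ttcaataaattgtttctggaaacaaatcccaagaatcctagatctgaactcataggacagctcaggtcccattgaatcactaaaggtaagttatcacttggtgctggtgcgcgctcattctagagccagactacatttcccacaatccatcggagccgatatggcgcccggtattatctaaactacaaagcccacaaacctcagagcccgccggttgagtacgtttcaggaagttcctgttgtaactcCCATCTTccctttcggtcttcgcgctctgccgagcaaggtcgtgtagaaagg

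The same elements were frequent across the family. RefSeq promoters were matched for 67 of the 82 genes. The NRF1 core was in 16.4% of these and in 2.8% of 27025 promoters of all genes. The shorter NRF1 form was in 26.9% against 8.06%, the ETS core in 22.4% against 9.12% and the YY1 core in 14.9% against 6.48%. Windows of the subunit genes were also richer in G and C, with a median of 58.3% against 52.7%, and the part of this in the shares was not tested. A match is a description of the sequence and not a binding site.

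Vutiglabridin was set against vehicle to show what changed with that drug in NASH liver. Subunit genes of complexes I, II, III and V were slightly higher in vutiglabridin livers, by 13.4% to 22.4% of the vehicle mean for those that rose, and the muscle-type isoform Cox7a1 was lower. Of the 80 genes tested, 11 rose (13.8%; 6.53% of all 11562 genes tested rose), 1 fell (1.25%; 8.78% of all genes fell) and 68 did not pass. The difference was positive in 76 of 80 genes, against 53.7% of all genes, and its median was 0.15, against 0.01 over all genes. No subunit gene had values that did not overlap between the groups, which 1.74% of all genes did. The medians of complexes I to V were 0.13, 0.18, 0.13, 0.15 and 0.15. The rise depended on the scaling, in that with library totals made equal (TPM) 0 subunit genes rose and 3 fell, and with quantile normalization 1 rose and 1 fell. The gene that fell with quantile normalization was Atp5b, and Cox7a1 did not pass there (limma adjusted p = 0.0521). TPM moved the median of all genes to −0.13 and that of the subunit genes to −0.01, a gap of 0.12 that compares with 0.13 as deposited, while under quantile normalization the gap was −0.00.

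**Figure D2:**
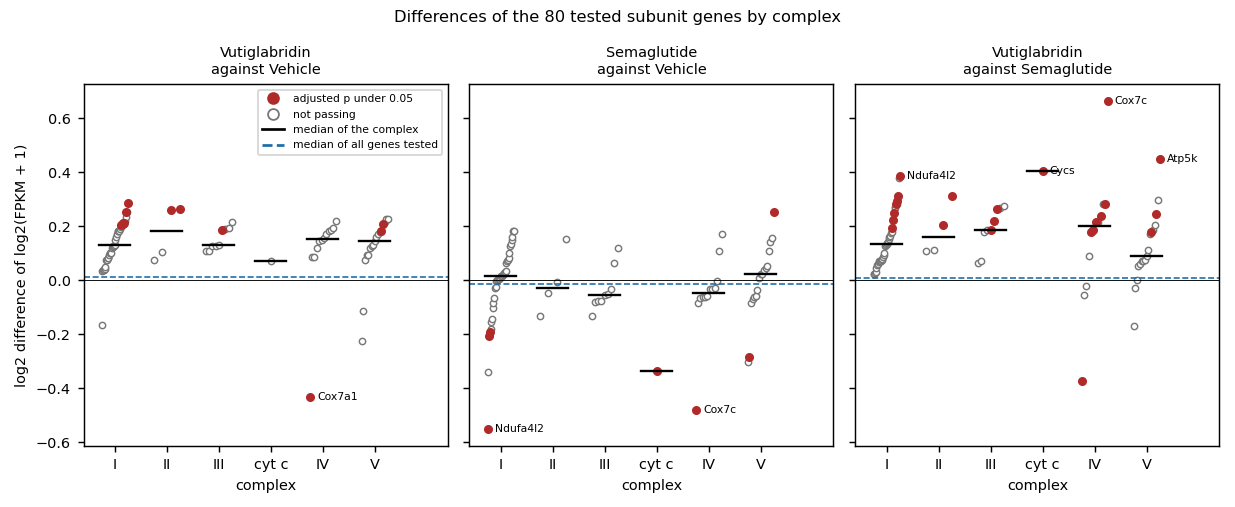
Log2 differences of the 80 tested subunit genes by complex in vutiglabridin against vehicle, semaglutide against vehicle and vutiglabridin against semaglutide. Red points passed (limma adjusted p under 0.05), open points did not, black lines are medians of a complex and the dashed line is the median of all 11562 genes tested; nearly all points of the first and last panels lie above 0, and those of the middle panel lie on both sides.

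In complex I, 6 of 37 genes rose and 0 fell. Ndufs8, a core subunit that holds iron-sulfur clusters, had a lowest, median and highest value of 52.6, 54.6 and 65.7 FPKM in vutiglabridin and 43.8, 49.98 and 54.3 FPKM in vehicle livers. All 8 vutiglabridin values were above the vehicle mean and 5 were above every vehicle value. Its difference was 0.21 ± 0.06 (limma adjusted p = 0.0219). Ndufb5, an accessory subunit of the membrane arm, had 15.4, 16.03 and 18.2 FPKM in vutiglabridin and 12.7, 13.8 and 15.9 FPKM in vehicle, a difference of 0.21 ± 0.06 (adjusted p = 0.0200). It shares 616 bp of exon with Mrpl47 on the opposite strand. The library kit keeps strand, but whether the counting used it is not given in the sources used here. Ndufa6, an accessory subunit, had 67.6, 70.9 and 88.7 FPKM in vutiglabridin and 52.8, 60.2 and 71.0 FPKM in vehicle, a difference of 0.25 ± 0.08 (adjusted p = 0.0260), and the highest value is that of replicate 4. Ndufb10, Ndufc2 and Ndufv2, another core subunit, were the remaining 3 that rose, with differences of 0.21, 0.29 and 0.21. By role, 2 of 7 core subunits rose, 1 of 12 accessory subunits of the A series and 3 of 12 of the B and C series, while 0 of 4 accessory subunits of the S and V series did.

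In complex II, Sdhb and Sdhd rose and Sdha and Sdhc did not pass. This complex, succinate dehydrogenase, is also an enzyme of the tricarboxylic acid cycle and is the single complex of the chain with no subunit encoded in mitochondria. Sdhb, its iron-sulfur subunit (chromosome 4, 140961203 to 140979193 on GRCm38), had 95.1, 99.7 and 113 FPKM in vutiglabridin livers and 74.5, 83.4 and 99.55 FPKM in vehicle livers. In 4 vutiglabridin samples it was above every vehicle value. The difference was 0.26 ± 0.06 (95% interval 0.13 to 0.40, limma adjusted p = 0.00650), or 20.0% of the vehicle mean. Sdhd, a membrane anchor (chromosome 9, 50596357 to 50603812), had 179.5, 218 and 229 FPKM in vutiglabridin and 155, 175 and 191 FPKM in vehicle. It was above every vehicle value in 7 of 8 samples, and the difference was 0.26 ± 0.06 (adjusted p = 0.00615). Sdha, the flavoprotein, had a difference of 0.11 (interval 0.00 to 0.21, adjusted p = 0.156) and Sdhc, the other anchor, one of 0.07 (interval −0.04 to 0.19, adjusted p = 0.411).

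In complex III, Cyc1 rose and the other 8 genes did not pass. Cyc1, the cytochrome c1 that hands electrons to cytochrome c (chromosome 15, 76343523 to 76346260), had 101, 108 and 124 FPKM in vutiglabridin and 87.9, 96.0 and 108 FPKM in vehicle, a difference of 0.19 ± 0.06 (limma adjusted p = 0.0232). Its groups overlapped, with 4 of 8 vutiglabridin values above the vehicle range. The small subunits Uqcr11, Uqcrq and Uqcrb had larger but more variable differences of 0.22, 0.19 and 0.19 (adjusted p = 0.213, 0.287 and 0.113). Cycs, the mobile carrier, differed by 0.07 (interval −0.07 to 0.21, adjusted p = 0.538).

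In complex IV no gene rose, although 11 of 12 tested genes had a positive difference. Cox7a2, the liver isoform of subunit 7a, came nearest, with 140.7, 160.5 and 194 FPKM in vutiglabridin and 117, 137 and 158 FPKM in vehicle (difference 0.22 ± 0.08, limma adjusted p = 0.0575). Its counterpart Cox7a1, the isoform of heart and skeletal muscle, went the other way at a far lower level. It had 1.47, 1.65 and 3.10 FPKM in vutiglabridin and 2.19, 2.98 and 3.69 FPKM in vehicle, a difference of −0.43 ± 0.13 (adjusted p = 0.0201). Replicates 1 and 4 lay inside the vehicle range and the other 6 lay below it. Of the summed FPKM of both isoforms Cox7a1 made up 1.19% ± 0.31 in vutiglabridin, 2.07% ± 0.45 in semaglutide and 2.10% ± 0.34 in vehicle livers (SD, n = 8 each).

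In complex V, Atp5c1 and Atp5h rose and 15 genes did not pass. Atp5c1, the gamma subunit that turns inside the catalytic head (chromosome 2, 10056016 to 10080510), had 132, 136 and 152 FPKM in vutiglabridin and 103, 119 and 135 FPKM in vehicle, a difference of 0.21 ± 0.05 (limma adjusted p = 0.00942). Atp5h, subunit d of the stalk that holds the head still, had 95.4, 102 and 116 FPKM in vutiglabridin and 83.1, 91.0 and 103 FPKM in vehicle, a difference of 0.18 ± 0.06 (adjusted p = 0.0485). Both groups of values overlapped for each gene. Atp5h has 4 near-identical pseudogenes, and it did not pass without vutiglabridin replicate 4 or 7 (adjusted p = 0.0849 and 0.0583). The highest genes of the complex differed least among its head subunits, with 0.12 for Atp5a1 and 0.07 for Atp5b (adjusted p = 0.128 and 0.337). Atp5s, a coupling factor that is not a structural subunit, and Atp5g2 had negative differences of −0.22 and −0.11 and did not pass.

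**Figure D3:**
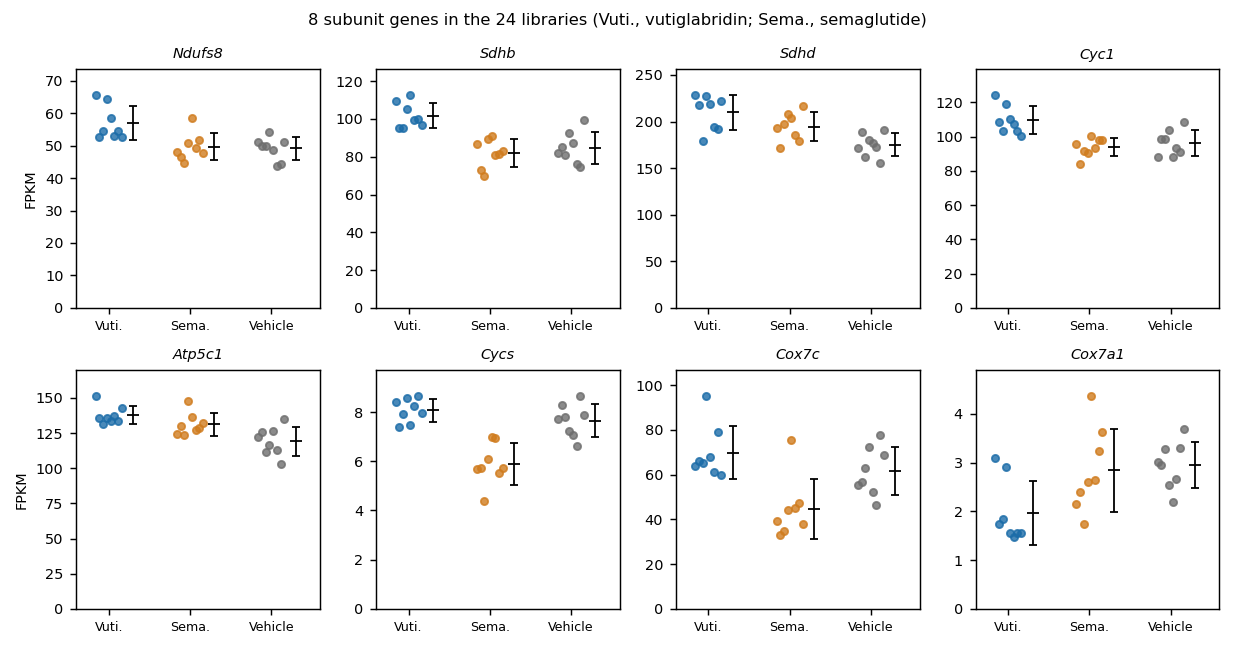
FPKM of 8 subunit genes in each of the 24 libraries, vutiglabridin and semaglutide left of vehicle; bars give mean and SD (n = 8) and all axes start at 0. Sdhd is above every vehicle value in 7 of 8 vutiglabridin samples, Cycs and Cox7c are below every vehicle value in 6 of 8 semaglutide samples, and Cox7a1 is below every vehicle value in 6 of 8 vutiglabridin samples.

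Semaglutide was set against the same vehicle samples. Few subunit genes changed and most of those fell. Across all genes 27% passed in either direction. Of 80 subunit genes, 1 rose (1.25%, against 14.3% of all genes), 6 fell (7.5%, against 12.7%) and 73 did not pass. The difference was positive in 39 genes, 46.9% of all genes being positive, and its median was −0.00, against −0.01 over all genes. Medians of complexes I to V were 0.01, −0.03, −0.05, −0.05 and 0.02. No gene had values that did not overlap, which 5.83% of all genes did. Differences of semaglutide with vehicle followed gene composition across all genes, with a Spearman rho of −0.32 for GC content and of 0.27 for length of exon (11560 and 11562 genes, no test). Over the 80 subunit genes rho was 0.23 for GC and 0.24 for length. With these trends removed, 19 subunit genes rose and 6 fell and their median was 0.07, and the rho with GC over the subunit genes was then 0.53. All 6 genes that fell as deposited also fell after the trends were removed.

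Cycs, the gene of cytochrome c (chromosome 6, 50562563 to 50566538), had the clearest difference. It had 4.37, 5.735 and 6.99 FPKM in semaglutide and 6.61, 7.76 and 8.66 FPKM in vehicle livers. All 8 semaglutide values lay below the vehicle mean and 6 lay below every vehicle value. The difference was −0.33 ± 0.07 (95% interval −0.47 to −0.20, limma adjusted p = 0.000581), and the mean fell by 23.0%. The range over all 14 alternative settings was −0.43 to −0.33 (adjusted p = 0.000179 to 0.00256). The transcript shares near-identical stretches with 4 other genes, 3 of them pseudogenes, so reads may be split between them.

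In complex IV, Cox7c was the gene that fell. Cox7c encodes a small subunit of cytochrome c oxidase (chromosome 13, 86044816 to 86046904) and had 32.8, 41.8 and 75.5 FPKM in semaglutide and 46.4, 59.8 and 77.6 FPKM in vehicle. The highest semaglutide value is that of replicate 5, and the next was 47.4 FPKM. The difference was −0.48 ± 0.13 (limma adjusted p = 0.00904), and −0.59 without that replicate (adjusted p = 0.000279). Of the other genes of the complex, Cox4i1 had the largest positive difference, with 246, 279 and 386 FPKM in semaglutide and 225, 261 and 287 FPKM in vehicle (0.17 ± 0.08, adjusted p = 0.120).

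In complex I, Ndufa4l2, Ndufb2 and Ndufb3 fell. Ndufa4l2, a paralog of Ndufa4 known for its induction by hypoxia, had 0.39, 0.97 and 1.62 FPKM in semaglutide and 1.18, 1.77 and 2.6 FPKM in vehicle. It lay below every vehicle value in 7 of 8 samples, and its difference was −0.55 ± 0.13 (limma adjusted p = 0.00221). Ndufa4 itself, a subunit named for complex I and now placed in complex IV, differed by −0.03 (adjusted p = 0.806), at a median of 206 FPKM in semaglutide and 212 FPKM in vehicle. Ndufb2, an accessory subunit, had 2.65, 3.075 and 3.31 FPKM in semaglutide and 3.05, 3.74 and 3.96 FPKM in vehicle (−0.19 ± 0.06, adjusted p = 0.0252). Its low level is per 5628 bp of annotated exon, part of which it shares with Braf on the opposite strand. Ndufb3, another accessory subunit, had 50.7, 56.4 and 74.0 FPKM in semaglutide and 59.3, 66.9 and 73.6 FPKM in vehicle (−0.21 ± 0.08, adjusted p = 0.0438). In 7 semaglutide samples it was below every vehicle value and in replicate 5 above all of them. With median centring its adjusted p was 0.0543.

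In complex V, Atp5g1 rose and Atp5s fell, and in complexes II and III no gene passed. Atp5g1, Atp5g2 and Atp5g3 all encode the same mature protein of the membrane ring (subunit c). Atp5g1 had 12.8, 14.2 and 16.1 FPKM in semaglutide and 9.03, 12.2 and 14.8 FPKM in vehicle, a difference of 0.25 ± 0.08 (limma adjusted p = 0.0199). Its share of the summed FPKM of these 3 genes was 5.92% ± 0.37 in vutiglabridin, 6.73% ± 0.49 in semaglutide and 5.37% ± 0.64 in vehicle livers (SD, n = 8 each), and Atp5g3 supplied 91.5%, 90.0% and 91.6% in the same order. Atp5s had 2.51, 3.065 and 4.65 FPKM in semaglutide and 3.46, 4.285 and 4.70 FPKM in vehicle (−0.28 ± 0.10, adjusted p = 0.0350). In complex II, Sdhd had 172, 195 and 217 FPKM in semaglutide and 155, 175 and 191 FPKM in vehicle, and its 0.15 ± 0.06 did not pass (adjusted p = 0.0724).

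The direct comparison of vutiglabridin with semaglutide asks where the 2 drugs differed. It shares samples with both comparisons above. Of 80 subunit genes, 22 were higher in vutiglabridin (27.5%, against 11.9% of all genes), 1 was lower (1.25%, against 12.6%) and 57 did not pass. The difference was positive in 75 genes (52.1% of all genes were positive), with a median of 0.16, against 0.01 over all genes. Medians of complexes I to V were 0.13, 0.16, 0.19, 0.20 and 0.09. With TPM 6 genes were higher and 1 lower, with quantile normalization 6 and 1, and without semaglutide replicate 5 the counts were 42 and 0. With quantile normalization the median was 0.02, against 0.01 over all genes, and 48 of 80 differences were positive. With GC and length trends removed 16 were higher and 3 lower, 61 of 80 differences were positive, the median was 0.07 and that of complex I was 0.03. 

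Cycs differed most clearly. It had 7.39, 8.095 and 8.65 FPKM in vutiglabridin and 4.37, 5.735 and 6.99 FPKM in semaglutide livers, which do not overlap, a difference of 0.40 ± 0.07 (limma adjusted p = 9.63e-05). Cyc1 (0.22 ± 0.06, adjusted p = 0.00538) and Sdhb (0.31 ± 0.06, adjusted p = 0.000942) did not overlap either, and these 3 of 80 genes, 3.75%, compare with 3.4% of all genes. Cyc1 was barely apart, with a lowest vutiglabridin value of 100.65 FPKM and a highest semaglutide value of 100.63 FPKM. For Sdhb the values were 69.9, 82.2 and 91.2 FPKM in semaglutide, below the lowest vutiglabridin value of 95.1 FPKM. Cox7c had the largest difference, 0.66 ± 0.13 (adjusted p = 0.000728), with 59.8, 65.7 and 95.3 FPKM in vutiglabridin and 32.8, 41.8 and 75.5 FPKM in semaglutide. Cycs, Cox7c, Sdhb and Ndufb2 (0.29 ± 0.06, adjusted p = 0.00132) passed under all 14 alternative settings, and Cyc1 did not pass under TPM, quantile normalization or removal of the GC and length trends (limma adjusted p = 0.0583, 0.224 and 0.0718, and 0.0819 where the last also had a replicate block).

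The other genes that were higher in vutiglabridin than in semaglutide came from every complex. In complex I, 7 of 37 genes were higher, which were Ndufa4, Ndufa4l2, Ndufb2, Ndufb3, Ndufc1, Ndufc2 and Ndufs8. With TPM only Ndufb2 of these passed, and with quantile normalization Ndufb2 and Ndufa4l2 did. In complex III, Uqcrfs1, the Rieske iron-sulfur protein, had 162, 171 and 212 FPKM in vutiglabridin and 129, 146.5 and 171 FPKM in semaglutide (0.26 ± 0.07, limma adjusted p = 0.00770). Uqcrc2, a core protein of that complex, had 117, 127 and 143 FPKM in vutiglabridin and 106, 112 and 118 FPKM in semaglutide (0.19 ± 0.05, adjusted p = 0.00391), with 7 vutiglabridin values above all semaglutide values. With quantile normalization neither Uqcrfs1 nor Uqcrc2 passed (limma adjusted p = 0.133 and 0.883), and with TPM Uqcrc2 did not pass (0.169). Uqcrc2 shares 504 bp of exon with Pdzd9 on the opposite strand. In complex IV, 6 of 12 genes were higher, which were Cox5a, Cox6c, Cox7a2, Cox7a2l, Cox7b and Cox7c. Of these only Cox7c also passed with TPM or with quantile normalization. Cox7a2l, a factor that joins complexes III and IV into supercomplexes, differed by 0.18 ± 0.06 (adjusted p = 0.0310). Cox7a1 was again the 1 gene lower in vutiglabridin, with 1.47, 1.65 and 3.10 FPKM against 1.74, 2.625 and 4.37 FPKM in semaglutide (−0.37 ± 0.13, adjusted p = 0.0316), and it did not pass without semaglutide replicate 5 (−0.30, adjusted p = 0.0657), without vutiglabridin replicate 7 (0.0562), with a replicate block (0.057), in a fit of the 2 groups (0.0618) or with quantile normalization (0.067). In complex V, Atp5g3, Atp5j and Atp5k were higher, and in complex II Sdhc was, by 0.21 ± 0.05 (adjusted p = 0.00759). Sdhc did not pass with TPM or quantile normalization (limma adjusted p = 0.0763 and 0.0812), nor did Atp5k (0.0649 and 0.12) or Atp5g3 (0.348 and 0.934). Without vutiglabridin replicate 4, Atp5k and Atp5g3 did not pass either (0.0804 and 0.105). Atp5j passed under all 14 alternative settings.

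Within each group the subunit genes varied together, and a few libraries stood apart. Each library's position is the median deviation of the subunit genes from the vehicle mean on the log2 scale. It was 0.07 to 0.34 in vutiglabridin, above 0 in 8 of 8 libraries, −0.15 to 0.32 in semaglutide, above 0 in 3 of 8, and −0.14 to 0.17 in vehicle libraries. Vutiglabridin replicate 4 and semaglutide replicate 5 were the highest of their groups. Complex IV moved most in both, with 0.46 in vutiglabridin replicate 4 and 0.40 in semaglutide replicate 5, while complex II lay between 0.08 and 0.30 in vutiglabridin and between −0.18 and 0.11 in semaglutide libraries. Without vutiglabridin replicate 4, the genes that rose against vehicle were 8 in number, with a median of 0.11 and with Atp5h, Ndufa6 and Ndufc2 not passing. Without semaglutide replicate 5 the number that fell in semaglutide against vehicle was 11, with a median of −0.05.

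**Figure D4:**
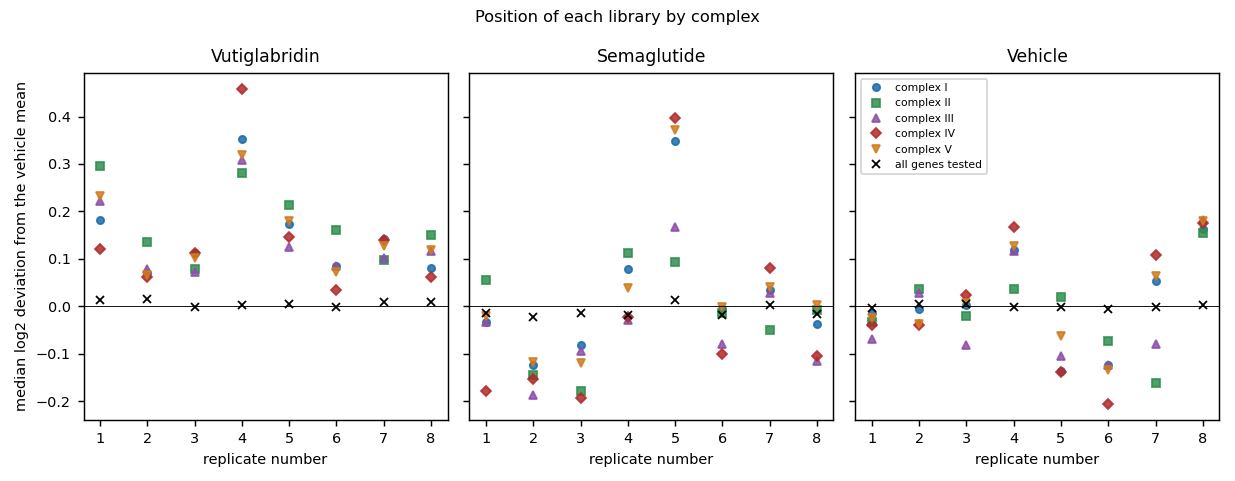
Median log2 deviation from the vehicle mean in each library, by complex (symbols) and for all 11562 genes tested (crosses), in vutiglabridin, semaglutide and vehicle. All vutiglabridin libraries lie above 0 for every complex, vutiglabridin replicate 4 and semaglutide replicate 5 stand highest of their groups for complexes I, III, IV and V but not for complex II, and the medians of all genes lie near 0.

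The deviations of subunit genes from their group mean correlated across the 24 libraries, with a median Pearson r over pairs of genes of 0.56 (80 genes, no test), against 0.01 between subunit genes and the 11482 other genes. Genes in the same library share its depth and scaling. The median within complexes was 0.57 for complex I, 0.53 for II, 0.49 for III, 0.71 for IV and 0.47 for V. Without vutiglabridin replicate 4 and semaglutide replicate 5 it was 0.41 over all subunit genes and 0.49 within complex IV. Atp5s was the weakest of the 7 genes looked at singly, with a median r of 0.07 to the other subunit genes, and Ndufa4l2 had 0.21.

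Assembly factors build the complexes and are not part of them. In vutiglabridin against vehicle, where 15.3% of all genes passed, 0 of 15 factors of complex I did, 0 of 23 of complex IV and 0 of 5 of complex V, with medians of 0.09, 0.07 and 0.05. Sdhaf4, which protects the flavoprotein of complex II during assembly, rose to 20.7 ± 3.26 FPKM in vutiglabridin, against 17.1 ± 1.88 FPKM in vehicle (limma adjusted p = 0.0405), the 1 of 4 for that complex. It did not pass with TPM (adjusted p = 0.303), quantile normalization (0.108), a fit of the 2 groups (0.0557) or without vutiglabridin replicate 7 (0.0914). Ttc19 of complex III fell to 2.94 ± 0.30 FPKM, against 3.54 ± 0.49 FPKM in vehicle (adjusted p = 0.0428, 1 of 6), and its adjusted p was 0.0553 to 0.122 in 6 other settings. In semaglutide against vehicle, where 27% of all genes passed, no factor rose. Tmem186 and Acad9 of complex I fell (2 of 15), as did Sdhaf1 of complex II (1 of 4) and Uqcc2 of complex III (1 of 6). Atpaf1 of complex V (1 of 5) and 4 of 23 factors of complex IV also fell. Over all genes 12.7% fell and 14.3% rose. With GC and length trends removed, Tmem186 (−0.09, limma adjusted p = 0.196) and Uqcc2 (−0.17, adjusted p = 0.116) did not pass. With a replicate block, Tmem186 and Acad9 did not pass (adjusted p = 0.0734 and 0.07). Coa6, a copper handling factor of complex IV, was at 25.7 ± 3.698 FPKM in semaglutide and 34.4 ± 3.69 FPKM in vehicle (−0.41 ± 0.08, adjusted p = 0.000430), and Higd1a, a factor induced by hypoxia, at 6.56 ± 0.78 and 8.59 ± 0.80 FPKM in the same order (−0.34 ± 0.07, adjusted p = 0.000367). Levels of both are mean ± SD (n = 8 each). In vutiglabridin against semaglutide, 4 of 15 factors of complex I, 2 of 4 of complex II and 1 of 6 of complex III were higher. So were 6 of 23 of complex IV and 1 of 5 of complex V, and 0 were lower (11.9% of all genes were higher). Foxred1, Coa6 and Higd1a passed there under all 14 alternative settings. With TPM, Acad9, Sdhaf2, Sdhaf4, Uqcc2 and Tmem70 did not pass (limma adjusted p = 0.057, 0.493, 0.0657, 0.0532 and 0.142).

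Among 15 regulators of mitochondrial gene expression, 1 rose in vutiglabridin against vehicle (6.53% of all genes did) and 9 rose in semaglutide against vehicle (14.3% of all genes did), with medians of 0.12 and 0.18. The gene that rose in vutiglabridin was Tfb2m. It did not pass with TPM (limma adjusted p = 0.175), a fit of the 2 groups (0.0941), GC and length trends removed (0.055) or no filter (0.0533). Nor did it pass in the fits with libraries left out (0.051 to 0.0843). In the direct comparison 2 of the 15, Gabpa and Ppargc1a, were lower in vutiglabridin (12.6% of all genes were) and 0 higher. Ppargc1a did not pass there with GC and length trends removed (−0.10, limma adjusted p = 0.288, and 0.27 with a replicate block as well). Nor did it pass with quantile normalization (0.0942), without vutiglabridin replicate 7 (0.0544) or 4 (0.0641), or without replicate 4 and semaglutide replicate 5 (0.0767). Gabpa, the DNA-binding subunit of the ETS factor GABP, had 8.75, 11.35 and 13.7 FPKM in semaglutide and 5.80, 6.70 and 8.87 FPKM in vehicle livers (0.62 ± 0.09, limma adjusted p = 2.17e-05). It shares 397 bp of exon with the subunit gene Atp5j on the opposite strand, and Atp5j differed by −0.06 in that comparison (adjusted p = 0.504). Ppargc1a, a coactivator that drives mitochondrial genes, had 2.30, 2.72 and 3.20 FPKM in semaglutide and 1.44, 1.86 and 2.25 FPKM in vehicle, which do not overlap (0.40 ± 0.07, adjusted p = 0.000230). The other 7 that rose in semaglutide were Ppargc1b, Tfam, Tfb1m, Tfb2m, Twnk, Yy1 and Lrpprc, with differences of 0.18 to 0.32. Nrf1, the factor of the NRF1 element, differed by 0.01 in vutiglabridin and 0.10 in semaglutide against vehicle (adjusted p = 0.915 and 0.203).

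Genes that feed the chain differed in a few members. Prodh, the proline dehydrogenase that passes electrons to ubiquinone, was at 43.2 ± 6.86 FPKM in vutiglabridin and 28.2 ± 3.79 FPKM in vehicle (0.59 ± 0.09, limma adjusted p = 0.000191), the largest rise of 8 such electron donors. Etfb, a subunit of the electron carrier of fatty acid oxidation, rose with both drugs against vehicle. It was at 51.7 ± 7.30 FPKM in vutiglabridin, 50.6 ± 4.02 FPKM in semaglutide and 43.1 ± 4.19 FPKM in vehicle. In vutiglabridin it did not pass with TPM or quantile normalization (limma adjusted p = 0.284 and 0.175). In semaglutide it did not pass without replicate 5 (0.054). Of the 8 donors, 2 rose in vutiglabridin (6.53% of all genes did) and 1 in semaglutide (14.3%) against vehicle. Among 13 genes of the tricarboxylic acid cycle, Fh1, fumarate hydratase, was the 1 that rose in vutiglabridin against vehicle (6.53% of all genes rose). It was at 89.4 ± 14.4 and 68.6 ± 7.61 FPKM in that order (0.37 ± 0.10, limma adjusted p = 0.00985). With TPM and quantile normalization its adjusted p was 0.0555 and 0.0552. In semaglutide against vehicle 0 of the 13 passed, where 27% of all genes did. Of 13 genes of ubiquinone synthesis, 0 passed in vutiglabridin against vehicle, where 15.3% of all genes did. In semaglutide against vehicle 2 of them fell, Coq2 and Coq3 (12.7% of all genes fell). Coq2 did not pass with GC and length trends removed (−0.12, limma adjusted p = 0.199). Of 16 proteins of the mitochondrial membranes and cristae, Vdac1 rose in vutiglabridin against vehicle (6.53% of all genes rose). It did not pass with TPM or quantile normalization (limma adjusted p = 0.71 and 0.973). Tomm70a and Opa1 rose in semaglutide against vehicle, where 14.3% of all genes rose. In vutiglabridin against semaglutide these 2 were lower (12.6% of all genes were), and of the 8 donors Prodh was higher and Gpd2 lower. There 2 of the 13 cycle genes, Fh1 and Idh3g, were higher (11.9% of all genes were). So were 3 of the 13 genes of ubiquinone synthesis, among them Coq10a and Coq3. Idh3g, Tomm70a and Opa1 did not pass there with GC and length trends removed (limma adjusted p = 0.141, 0.482 and 0.274). The 13 subunits encoded by mitochondrial DNA have no row in the table analysed here.

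Summed markers of cell types differed between the groups, though not alike in every list. The summed level of 9 macrophage markers had a median of 289 FPKM in vutiglabridin, 390 FPKM in semaglutide and 446 FPKM in vehicle, and that of 7 stellate cell and fibroblast markers 84.3, 89.9 and 128 FPKM in the same order. Cholangiocyte markers had 161, 224 and 254 FPKM, lymphocyte markers 2.34, 3.7 and 3.64 FPKM and endothelial markers 37.4, 38.5 and 33.4 FPKM. Erythroid markers had 233, 159 and 172 FPKM, and the 2 adipocyte markers with a row 22.9, 7.9 and 35.7 FPKM. The summed hepatocyte markers were at 36556 to 51400 FPKM in vutiglabridin, 37063 to 48288 FPKM in semaglutide and 33780 to 41468 FPKM in vehicle. Of the 8 hepatocyte markers 3 rose in vutiglabridin (6.53% of all genes did) and 4 in semaglutide (14.3%) against vehicle, and 0 fell. Their difference was positive in 7 of 8 in vutiglabridin and in 6 of 8 in semaglutide. The lowest was −0.08 in vutiglabridin and −0.65 in semaglutide. The part of cell types in the differences of the subunit genes was not tested.

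**Figure D5:**
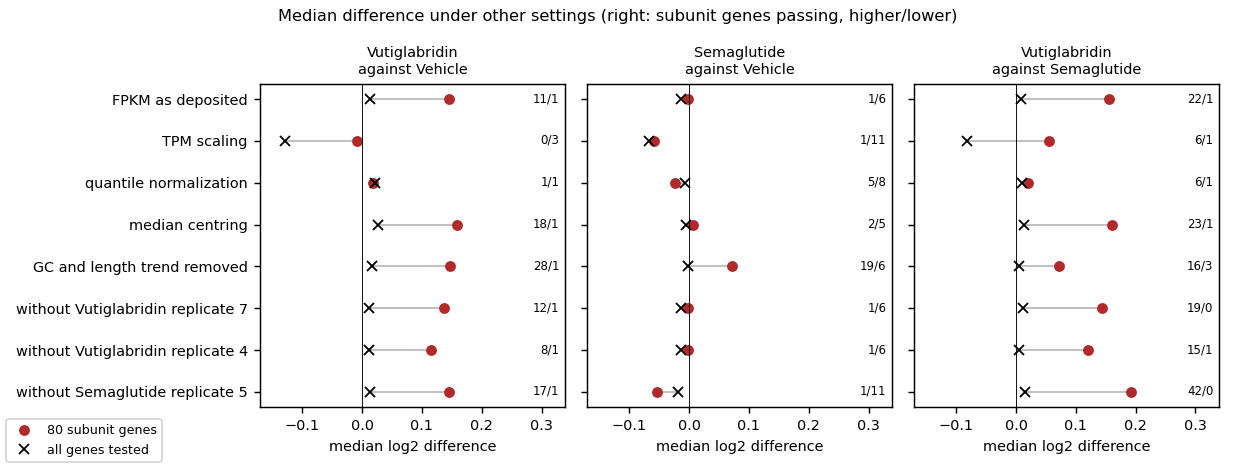
Median log2 difference of the 80 subunit genes (red) and of all 11562 genes tested (crosses) in the 3 comparisons, as deposited and under 7 other settings; numbers at the right are the subunit genes that passed as higher and lower. TPM moves both medians down together. Quantile normalization brings them onto each other in vutiglabridin against vehicle and close together in vutiglabridin against semaglutide. Removal of GC and length trends raises the subunit genes in semaglutide against vehicle.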

How the data were processed

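RNA of 24 liver samples was sequenced, with groups taken from the labels. The authors deposited 1 table of FPKM values for 14293 genes. The submitters' processing notes list HISAT2, StringTie and DESeq2; no version or genome build was found in the sources used here. All gene identifiers matched GENCODE release 21 for mouse (GRCm38), used for coordinates, exon length and GC content. FPKM divides by depth and length and leaves library totals unequal. Implied fragments were estimated from the smallest value steps of genes with at most 1500 bp of exon. A gene was tested if 8 or more samples reached 0.5 FPKM, on log2(FPKM + 1) in one limma fit of the 3 groups (limma 3.58.1, R 4.3.3), with Benjamini-Hochberg adjustment over 11562 genes and a threshold of 0.05, after tests on simulated data. Near-identical stretches in other genes, including genes that overlap in place, were searched with blastn 2.17.0. The members and gene lists were chosen with earlier results of these data known. Genes to name were chosen, per complex and comparison, as up to 3 with the lowest p that passed in each direction. Where none passed, the gene with the lowest p was chosen. The highest and lowest genes of each complex, complex II, Cyc1, Cycs and isoform pairs were chosen as well. For each pathway list up to 2 per direction were chosen. Some genes so chosen are not given in every comparison. Ndufb10, Ndufc2, Ndufv2, Uqcrq, Uqcrb, Atp5b and others named in counts or single values were added after their values were seen. Alternatives were another pseudocount (0.1), other filters, TPM, quantile and median scaling, removal of GC and length trends, a replicate block, fits of 2 groups, and libraries left out.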

Additional observations from a re-analysis of the deposited data

Results flagged for a closer look

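In 38 genes the highest or lowest of the 8 samples of a group was checked for a wide gap to its nearest neighbour, and 20 of 114 groups had one. Chance gives about 1 in 20 groups, and genes of one library are not independent. Semaglutide replicate 5 held the highest value for 9 of these genes. It had 56.36 FPKM of Atp5j (next 48.05), 148.4 FPKM of Atp5k (next 91.87), 372.8 FPKM of Cox6a1 (next 268.5) and 315.3 FPKM of Cox6b1 (next 231.6). It also had 49.82 FPKM of Cox6c (next 38.62), 75.53 FPKM of Cox7c (next 47.41), 323.4 FPKM of Cox8a (next 242.5), 90.39 FPKM of Ndufa6 (next 73.33) and 74.01 FPKM of Ndufb3 (next 58.48). Vutiglabridin replicate 4 had 360 FPKM of Cox4i1 (next 295.6), 362.4 FPKM of Cox6a1 (next 260.1), 287.3 FPKM of Cox6b1 (next 243.5), 376 FPKM of Cox8a (next 257.8) and 88.73 FPKM of Ndufa6 (next 76.39). Vehicle replicate 8 had 79.18 FPKM of Sdhc (next 70.95) and 197 FPKM of Uqcrfs1 (next 166.8). Single genes were Cox4i2 at 0.41 FPKM in semaglutide replicate 4, Cox6b2 at 0.9 FPKM in vutiglabridin replicate 6, Cox7a2l at 46.63 FPKM in vutiglabridin replicate 7 and Uqcrc2 at 142.9 FPKM in vutiglabridin replicate 1.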

How the results depend on the processing

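Counts of calls moved between the alternatives run, and 2 genes that did not pass as deposited, both with positive differences of vutiglabridin against vehicle, passed as lower: Ndufa10 with TPM and Atp5b with quantile normalization. In vutiglabridin against vehicle, 11 subunit genes were higher and 1 lower. The number higher was 0 with TPM, 1 with quantile normalization, 18 with median centring, 28 with GC and length trends removed and 26 with these removed beside a replicate block, and the number lower was 3 with TPM. The median was −0.0078 with TPM and 0.0174 with quantile normalization. Over all genes TPM gave 233 higher and 2731 lower. In semaglutide against vehicle, with 1 higher and 6 lower, the number higher was 5 with quantile normalization, 2 with median centring, 19 with the trends removed, 2 with the replicate block and 19 with both, and the number lower was 11 with TPM. In vutiglabridin against semaglutide, with 22 higher and 1 lower, 6 were higher with TPM and 6 with quantile normalization, where the median was 0.0199. The number lower was 3 with the trends removed, 0 with the replicate block, 3 with both and 0 in a fit of the 2 groups. Over all genes TPM gave 596 higher and 2264 lower. TPM divides by unequal library totals; the cause of the other shifts was not tested. With libraries left out, some of them chosen after seeing the data, the ranges were 8 to 17 higher in vutiglabridin against vehicle, 6 to 11 lower in semaglutide against vehicle, and 15 to 42 higher and 0 to 1 lower in vutiglabridin against semaglutide. Without both vutiglabridin replicate 4 and semaglutide replicate 5 these were 12, 11, 38 and 1. Depth is lowest in vutiglabridin replicate 7, and genes near 1 FPKM rest on few fragments.

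Replicate numbers are shared between groups, and the labels do not say whether they pair the samples. The correlations given next describe this and cannot settle it. Deviations of same-numbered samples correlated above 0.1 in 6 of 8 pairs of vutiglabridin and vehicle, 2 of 8 of semaglutide and vehicle and 3 of 8 of vutiglabridin and semaglutide, and a sample matched its own number best in 2, 1 and 1 of 8. With the replicate block 15 subunit genes were higher and 1 lower in vutiglabridin against vehicle, 2 and 6 in semaglutide against vehicle, and 23 and 0 in vutiglabridin against semaglutide.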
